A study of Mus musculus with 32 samples.

Results

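The S100 and annexin genes examined here were 8 genes of the mouse kidney: the S100 genes *S100a4*, *S100a6*, *S100a10* and *S100a11*, and the annexin genes *Anxa1*, *Anxa2*, *Anxa3* and *Anxa5*. They were chosen by name from the 53700 genes of the deposited count table, and 7 of the 8 passed the filter on low counts that 13961 genes passed in all. *S100a4* did not pass. Bulk RNA sequencing of poly(A) RNA was performed on whole kidneys of male C57BL/6 mice. The study asked how the cystic kidney transcriptome responds to a short course of salsalate, a prodrug of salicylate.

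All animals in both PKD groups were iKspCre-Pkd1del mice, in which a Cre that is restricted to the kidney and switched on by tamoxifen removes the exons of *Pkd1* lying between its LoxP sites. Tamoxifen was given at 150 mg/kg on postnatal days 18 and 19. The 12 PKD mice stayed on normal chow, and the 12 PKD + Salsalate mice received chow with 2.5 g/kg salsalate from postnatal day 81, for 2 weeks. Both PKD groups were 95 days old. The study picked the mice of both groups from larger ones for a similarly mild cystic phenotype. Treated and untreated kidneys were thus compared only among mice of like phenotype. The 8 wildtype controls had received no tamoxifen and no salsalate, and the labels put their age at 109 days, while the growth protocol ends the experiment for every mouse at day 95. The sources thus differ on the age of the controls, and genotype, tamoxifen and, by the labels, age cannot be told apart in a comparison with wildtype.

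S100 proteins are small EF-hand proteins that mostly bind calcium and then dock onto target proteins. Annexins bind acidic phospholipids of membranes when calcium rises, and take part in membrane repair, vesicle traffic and the handling of the cortical actin skeleton. The families meet in defined complexes: S100A10, which has lost calcium binding, pairs with annexin A2 at the plasma membrane, and S100A11 pairs with annexin A1. In kidney, many of these genes are known to be more active in injured or dedifferentiated tubule cells, in fibroblasts and in macrophages than in healthy proximal tubule.

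The total count on genes ran from 11193136 to 109807664 per kidney. *Pkd1* itself was read at a mean of 68.7 ± 10.9 CPM (CPM, the reads of a gene relative to the TMM-normalised total of the kidney; SD, n = 8) in wildtype kidneys, 92.1 ± 15.1 (n = 12) in PKD kidneys and 92.7 ± 15.1 (n = 12) in PKD + Salsalate kidneys. This count spans the whole gene, including exons outside the deleted part, and therefore does not check the deletion. The wildtype libraries formed 2 sets by name, 5 whose names end in R and 3 others. No library of either PKD group has a name ending in R, so the R occurs only among wildtype kidneys. Summed proximal tubule markers were 6189 to 8287 CPM in the R-named set and 10812 to 12412 CPM in the other. Kidney markers were present in every group. PKD replicate 10 carried liver transcripts, with a summed liver marker level of 3204 CPM against a group median of 69.0 CPM.

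*S100a4*, the metastasis-associated S100 gene also known as fibroblast-specific protein, could not be measured in these counts. Its count was 0 in 23 kidneys, 1 in 6 and 2 in 3, a sum of 12 reads over all 32 kidneys. The gene lies at chr3:90511074-90513354 on the plus strand of GRCm39, and 302 of the 503 bases of its canonical transcript (60%) are also exons of the same-strand gene model *Gm42674*. Of its 303 coding bases before the stop codon, 287 (94.7%) are shared. The coding stretches of both exons are printed because they are the bases at which a read belongs to *S100a4* and *Gm42674* alike. The start codon is in capitals.
S100a4, chr3:90512319-90512459, plus strand, GRCm39: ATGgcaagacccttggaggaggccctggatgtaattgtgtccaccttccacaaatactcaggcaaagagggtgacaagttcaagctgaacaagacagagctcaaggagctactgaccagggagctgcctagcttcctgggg
S100a4, chr3:90513047-90513192, plus strand, GRCm39: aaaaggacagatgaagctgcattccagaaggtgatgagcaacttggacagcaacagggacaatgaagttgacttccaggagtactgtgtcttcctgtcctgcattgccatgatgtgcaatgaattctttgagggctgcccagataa

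HTSeq leaves out a read that lies on exons of more than 1 gene on the same strand, and *Gm42674* itself had 0 counts in all kidneys. The *S100a4* counts therefore cannot be read as absence of the transcript, and no difference between groups is given for it. The overlap was read from the GENCODE release used here, and the authors counted on an earlier release. A count of 3 would have been 0.0274 to 0.284 CPM, depending on the depth of the kidney. Among the other members, no exon base of the canonical transcript was shared with another gene on the same strand.

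Sequence immediately upstream of the start site was available for 6 of the 8 members in the RefSeq promoter table (GRCm38.p6), namely *S100a4*, *S100a6*, *S100a11*, *Anxa1*, *Anxa2* and *Anxa5*. The 250 bases before the start were searched on both strands for 5 motifs: the AP-1 element TGANTCA, the TEAD element CATTCC, the GC box GGGCGG, the TATA box TATAAA and the NF-kappaB element GGANTTTCC. The promoters of *S100a11*, *Anxa2* and *Anxa1* are printed, since they held matches to the most of these motifs among genes that were higher in PKD kidneys. Matches are in capitals, the strand is that of the gene, and no matches overlapped.
S100a11, chr3:93520246-93520495, plus strand, GRCm38.p6: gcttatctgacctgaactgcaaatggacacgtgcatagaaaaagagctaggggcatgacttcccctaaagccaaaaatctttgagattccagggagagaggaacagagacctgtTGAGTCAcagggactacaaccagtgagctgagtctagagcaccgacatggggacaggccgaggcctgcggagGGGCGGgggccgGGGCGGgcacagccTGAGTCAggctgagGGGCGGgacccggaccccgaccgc
Anxa2, chr9:69453433-69453682, plus strand, GRCm38.p6: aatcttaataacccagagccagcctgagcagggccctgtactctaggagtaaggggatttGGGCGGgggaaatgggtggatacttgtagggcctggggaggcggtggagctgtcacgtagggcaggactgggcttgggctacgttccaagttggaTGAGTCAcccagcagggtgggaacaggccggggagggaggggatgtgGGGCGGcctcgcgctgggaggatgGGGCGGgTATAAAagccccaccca
Anxa1, chr19:20390672-20390921, minus strand, GRCm38.p6: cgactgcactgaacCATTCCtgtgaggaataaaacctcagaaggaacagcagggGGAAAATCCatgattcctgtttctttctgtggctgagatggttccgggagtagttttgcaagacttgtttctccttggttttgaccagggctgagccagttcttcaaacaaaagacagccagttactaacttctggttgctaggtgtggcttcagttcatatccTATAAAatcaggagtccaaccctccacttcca

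The AP-1 element was found at 2 places upstream of *S100a11* (from bases -136 and -38, counted back from the start) and once upstream of *Anxa2* (from base -95). It occurs in 6.75% of 32851 promoters of the same length. The GC box was found 3 times in each of these promoters and occurs in 32.7% of all. *Anxa1* had a TATA box from base -32, a TEAD element from base -236 and an NF-kappaB element from base -196. A TATA box also lay upstream of *Anxa2* (from base -17) and *S100a4* (from base -31). The TATA box occurs in 12.4% of all promoters, the TEAD element in 12.6% and the NF-kappaB element in 1.07%. None of these letters were found in the windows of *S100a6* and *Anxa5*. These are matches of letters and say nothing of which factor was bound in these kidneys.

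Of the members that could be tested, all 7 rose in PKD relative to wildtype (adjusted p under 0.05, edgeR quasi-likelihood test). In the same comparison, 24.1% of all genes tested were called higher and 25% lower. Their median log2 fold change was 0.60, beside a median of -0.01 over all genes tested. In PKD + Salsalate against wildtype, 6 of the 7 were higher, where 21.8% of all genes were called higher and 23.2% lower, and the members' median was 0.59 against -0.01 over all genes. The exception was *Anxa3*. In PKD + Salsalate against PKD, 0 of 7 were called at an adjusted p under 0.05, and 0 of 7 had an unadjusted p under 0.05. DESeq2 gave 0 and 0 as well. Of all genes, 0.58% were called in that comparison, in either direction. The PKD and PKD + Salsalate groups were each compared with the same wildtype kidneys, and those comparisons are therefore not independent. In bulk tissue, a larger number of cells of a type and more RNA per cell cannot be told apart.

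**Figure D1:**
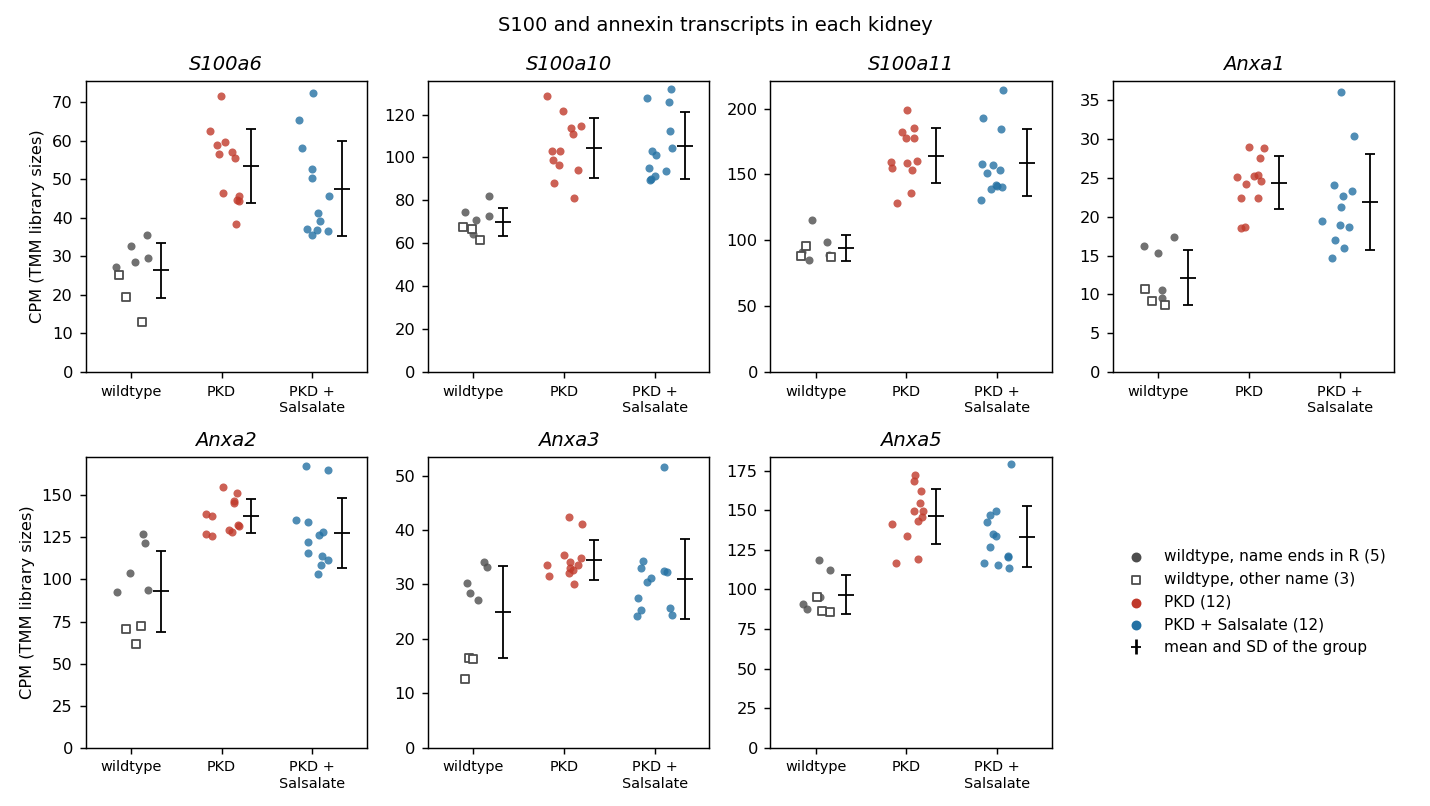
CPM (TMM library sizes) of the 7 tested S100 and annexin genes, with a point for each kidney of the wildtype (n = 8), PKD (n = 12) and PKD + Salsalate (n = 12) groups. The black line and bar are the group mean and SD, and open squares are the 3 wildtype libraries whose names do not end in R. PKD kidneys lay wholly above wildtype kidneys for *S100a6*, *S100a11* and *Anxa1*, and the open squares lay lowest for *S100a6*, *Anxa2* and *Anxa3*.

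*S100a6* (calcyclin, a binding partner of the ubiquitin ligase adaptor encoded by *Cacybp*; chr3:90520140-90535843, plus strand, GRCm39) ran from 12.9 to 35.4 CPM in wildtype kidneys (median 27.8), from 38.4 to 71.6 in PKD kidneys (median 56.0) and from 35.5 to 72.5 in PKD + Salsalate kidneys (median 43.4). All PKD and all treated kidneys lay above all wildtype kidneys, the lowest treated kidney only just. It rose by 1.02 ± 0.16 on the log2 scale (SE, n = 12 and 8; adjusted p = 1.97e-06) in PKD kidneys and by 0.86 ± 0.15 (adjusted p = 3.34e-05) in treated kidneys, both against wildtype. Between treated and untreated PKD kidneys the log2 difference was -0.16 (95% interval -0.43 to 0.10, adjusted p = 0.758). Among the treated kidneys, 9 of 12 lay below the PKD median.

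*S100a10*, the partner of annexin A2 (chr3:93462213-93474510, plus strand), ran from 61.3 to 81.8 CPM in wildtype (median 69.2), from 81.1 to 129 in PKD (median 103.1) and from 89.6 to 132 in PKD + Salsalate kidneys (median 102). In PKD, 11 of 12 kidneys were above the highest wildtype kidney, and in the treated group all 12 were. The rise was 0.58 ± 0.09 on the log2 scale in PKD (adjusted p = 1.30e-06) and 0.59 ± 0.09 in treated kidneys (adjusted p = 1.11e-06). The treated kidneys were spread evenly around the PKD median, with 6 above and 6 below, and the log2 difference was 0.015 (95% interval -0.14 to 0.17, adjusted p = 0.978).

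*S100a11*, the partner of annexin A1 (chr3:93414382-93435293, plus strand, beside *S100a10*), ran from 85.03 to 116 CPM in wildtype (median 89.9), from 128 to 199 in PKD (median 160) and from 130.2 to 214 in PKD + Salsalate kidneys (median 152). The groups with the *Pkd1* deletion did not overlap with wildtype. It rose by 0.81 ± 0.09 on the log2 scale in PKD (adjusted p = 4.79e-09) and by 0.76 ± 0.09 in treated kidneys (adjusted p = 2.41e-08). The log2 difference between treated and untreated PKD kidneys was -0.05 (95% interval -0.21 to 0.11, adjusted p = 0.899), with 9 of 12 treated kidneys below the PKD median.

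Of the annexins, *Anxa1*, whose protein dampens leukocyte recruitment through formyl peptide receptors (chr19:20350792-20368374, minus strand), ran from 8.63 to 17.3 CPM in wildtype (median 10.6), from 18.6 to 29.0 in PKD (median 24.9) and from 14.6 to 36.1 in PKD + Salsalate kidneys (median 20.4). Every PKD kidney was above every wildtype kidney, whereas 9 of 12 treated kidneys were above the wildtype maximum. It rose by 1.02 ± 0.15 on the log2 scale in PKD (adjusted p = 1.30e-06) and by 0.86 ± 0.15 in treated kidneys (adjusted p = 2.17e-05). Treated kidneys differed from PKD kidneys by -0.16 (95% interval -0.41 to 0.10, adjusted p = 0.762), and 10 of 12 lay below the PKD median.

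*Anxa2*, which holds S100A10 and actin at the membrane (chr9:69360542-69399077, plus strand), ran from 61.9 to 127 CPM in wildtype (median 93.0), from 126 to 155 in PKD (median 135) and from 103.4 to 168 in PKD + Salsalate kidneys (median 124). In PKD, 11 of 12 kidneys were above the wildtype maximum, and in the treated group 5 of 12 were. It rose by 0.57 ± 0.11 on the log2 scale in PKD (adjusted p = 5.32e-05) and by 0.46 ± 0.11 in treated kidneys (adjusted p = 0.000729). The log2 difference between treated and PKD kidneys was -0.11 (95% interval -0.30 to 0.08, adjusted p = 0.782).

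*Anxa5*, which binds phosphatidylserine and whose protein is used to stain dying cells (chr3:36503072-36530126, minus strand), ran from 85.6 to 119 CPM in wildtype (median 93.2), from 116 to 172 in PKD (median 148) and from 114 to 179 in PKD + Salsalate kidneys (median 130.3). Above the wildtype maximum were 11 of 12 PKD and 9 of 12 treated kidneys. The rise was 0.60 ± 0.08 on the log2 scale in PKD (adjusted p = 6.00e-07) and 0.47 ± 0.08 in treated kidneys (adjusted p = 3.71e-05). Of all members, *Anxa5* had the lowest unadjusted p for treated against untreated PKD kidneys, 0.081, with a log2 difference of -0.13 (95% interval -0.28 to 0.02, adjusted p = 0.578) and 10 of 12 treated kidneys below the PKD median.

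*Anxa3* (chr5:96940544-96993828, plus strand) differed least from wildtype. It ran from 12.6 to 34.2 CPM in wildtype (median 27.9), from 30.1 to 42.5 in PKD (median 33.6) and from 24.2 to 51.5 in PKD + Salsalate kidneys (median 30.8). All 3 groups overlapped, and 4 of 12 PKD kidneys were above the wildtype maximum. The log2 difference from wildtype was 0.49 ± 0.15 in PKD (adjusted p = 0.00695) and 0.33 ± 0.15 in treated kidneys (adjusted p = 0.0649). Between treated and PKD kidneys it was -0.15 (95% interval -0.42 to 0.11, adjusted p = 0.767).

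**Figure D2:**
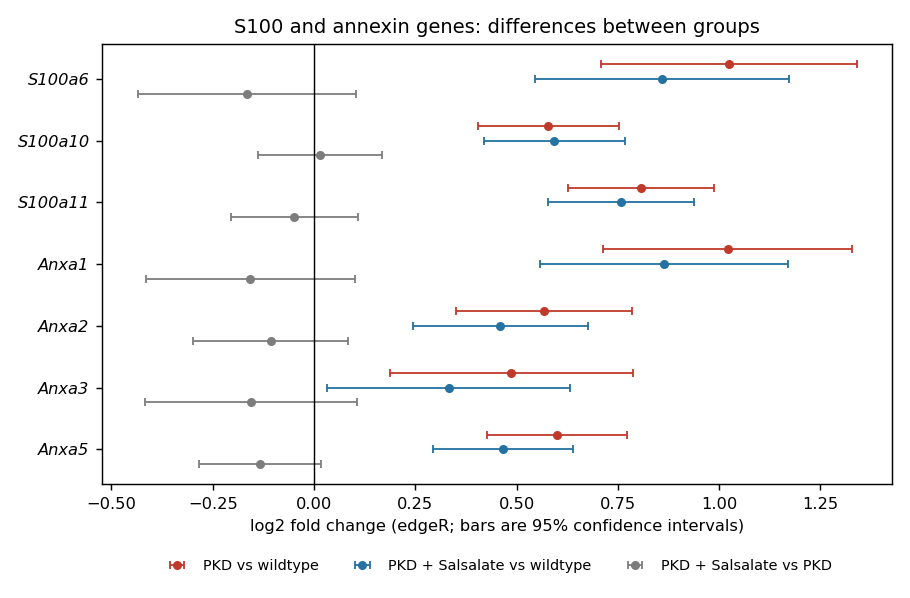
Log2 fold changes of the 7 tested genes from the edgeR fit over all 32 kidneys, with 95% confidence intervals, for PKD against wildtype (red), PKD + Salsalate against wildtype (blue) and PKD + Salsalate against PKD (grey). Red and blue points lay to the right of 0 for all genes, and every grey interval crossed 0.

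Counted by overlap alone, all PKD kidneys were above all wildtype kidneys for 3 of the 7 genes (*S100a6*, *S100a11* and *Anxa1*), which held for 5.21% of all genes tested. All treated kidneys were above all wildtype kidneys for 3 of 7 (*S100a6*, *S100a10* and *S100a11*), which held for 4.46% of all genes. Without TMM scaling, the PKD count was 5 of 7 (*S100a10* and *Anxa2* in addition), and 6.41% of all genes were then above all wildtype kidneys.

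The *Anxa3* result turned on which wildtype libraries were used. It was read at 27.2 to 34.2 CPM in the 5 wildtype libraries ending in R and at 12.6 to 16.6 CPM in the 3 others. Against the first set its log2 difference in PKD was 0.17 (adjusted p = 0.221), and against the second set 1.17 (adjusted p = 1.87e-06). In treated kidneys the corresponding differences were 0.02 (adjusted p = 0.910) and 1.02 (adjusted p = 1.51e-05). *Anxa2* was split in the same way, at 92.3 to 127 CPM against 61.9 to 72.4 CPM, with a log2 difference in PKD of 0.35 (adjusted p = 0.00222) against the first set and 1.00 (adjusted p = 1.30e-07) against the second. *S100a6* ran from 27.1 to 35.4 CPM in the first set and from 12.9 to 25.2 CPM in the second. The 6 members other than *Anxa3* were called higher in PKD against either set, where 30.7% of all genes were called higher with the R-named set and 20.9% with the other set. The sets also differed in the share of alignments on genes, at 73.6 to 76.4% with R names and 80.9 to 83.1% in the others. Their total counts were 11278382 to 16473782 and 17011675 to 28290874. In PKD kidneys 74.1 to 82.9% of alignments lay on genes. What the R stands for is not given in the sources used here, and its part in the result was not tested further.

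Compared per kilobase of the canonical transcript, which is the scale for levels between genes, *Anxa2* led in every group, at 64.2 ± 16.5 CPM per kb in wildtype, 95.0 ± 7.0 in the PKD group and 88.2 ± 14.3 in the treated group (SD). *Anxa5* followed at 55.8 ± 7.1, 84.6 ± 10.0 and 77.1 ± 11.0 CPM per kb. *Anxa2* was above *Anxa5* in 5 of 8 wildtype kidneys, so that their order in wildtype was within the spread, and in 11 of 12 kidneys of each PKD group. *S100a11* came next, at 40.3 ± 4.3, 70.6 ± 8.9 and 68.2 ± 10.9 CPM per kb, then *S100a6* at 33.8 ± 9.3, 68.5 ± 12.2 and 61.0 ± 15.9. In PKD these 2 did not differ in order, since *S100a11* was the higher in 6 of 12 kidneys. *S100a10* (20.5, 30.6 and 30.9 CPM per kb), *Anxa3* (15.0, 20.8 and 18.7) and *Anxa1* (6.99, 14.0 and 12.6) followed, each above the next in all kidneys. The canonical models of *S100a10* (3419 bases) and *S100a11* (2328 bases) are long for genes of this family, which lowers their values on this scale. The order depends on the length used: divided by all annotated exon bases of a gene, the mean of *S100a11* was the highest (35.1, 61.5 and 59.4 CPM per kb), ahead of *Anxa2* (18.5, 27.3 and 25.4), and *S100a6* (22.7) was above *Anxa5* (17.3) in PKD.

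Within the treated group, the same kidney (PKD + Salsalate replicate 11) was highest for 6 of the 7 genes: *S100a6* (72.5 CPM), *S100a11* (214), *Anxa1* (36.1), *Anxa2* (168), *Anxa3* (51.5) and *Anxa5* (179). *S100a10* was highest in replicate 10, at 132 CPM. Replicate 4 was second for 6 of the 7 genes. Replicate 11 was also highest among treated kidneys in the summed markers of injured tubule (280.2 CPM, group median 106), macrophages (636 CPM, median 427) and fibroblasts (1723 CPM, median 1000.4), and replicate 4 was second in each. Treated replicate 11 was also highest in summed neutrophil, endothelium and liver markers, and lowest in proximal tubule markers (6858 CPM). No single kidney led the PKD group, in which the highest values were spread over 5 kidneys. PKD replicate 4 was highest for *S100a6* (71.6 CPM) and *S100a11* (199 CPM), but lowest for *Anxa3* (30.1 CPM) and *Anxa5* (116 CPM). It ranked 11 of 12 in summed macrophage (382 CPM) and fibroblast (861 CPM) markers. Its total count (11193136) and its share of alignments on genes (74.1%) were the lowest of the PKD group.

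Across the 24 PKD and PKD + Salsalate kidneys, after centring within each group, all 21 pairs of members had a positive Pearson correlation of log2 CPM, from 0.17 to 0.93 with a median of 0.66. These are descriptions over kidneys that share their depth scaling, and the share of positive pairs among all genes tested was not computed. A pooled value need not hold in each group. *Anxa1* with *S100a11* was 0.55 here, but -0.09 in PKD kidneys and 0.87 in treated kidneys alone. Treated replicate 11, highest for 6 of the 7 genes, is among the kidneys pooled. The closest pair was *S100a6* and *S100a11* (0.93), which were also each other's most similar gene among all genes tested. The next most similar to *S100a6* were *Basp1* (0.88) and *Fcer1g* (0.88), and to *S100a11* *Cstb* (0.89) and *Ptma* (0.83). *S100a10* was most like the metallothionein gene *Mt2* (0.84), *Ppp1r14b* (0.83) and *Cstb* (0.81). *Anxa1* was most like the retinoic acid synthesis gene *Aldh1a2* (0.94), *Plp2* (0.90) and *Serpina10* (0.89). *Anxa2* was most like the galectin gene *Lgals3* (0.95), and the smooth muscle gene *Tagln* (0.90) was also among its closest. *Anxa3* was most like *Serpinb6a* (0.88), *Mybpc2* (0.87) and *Cmtm3* (0.85). *Anxa5* was most like *Slc25a24* (0.94), *Myadm* (0.90) and the matrix gene *Thbs1* (0.89).

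The genes of known protein partners were also correlated within each group, over 4 relations, by Pearson's r and Spearman's coefficient. *Anxa2* and *S100a10* had r = 0.63 (Spearman 0.63) in the 12 PKD kidneys (permutation test, p = 0.0282 and 0.0330, adjusted p = 0.0376 and 0.0440) and r = 0.80 (Spearman 0.77) in the 12 treated kidneys (permutation p = 0.00196 and 0.00449, adjusted p = 0.00392 and 0.00898). Without the 2 kidneys farthest from the median of *Anxa2*, r was 0.51 (permutation p = 0.135) in PKD, where replicates 4 and 8 were left out, and 0.63 (permutation p = 0.0456, adjusted p = 0.0608) in treated kidneys, where replicates 4 and 11 were. *Anxa1* and *S100a11* had r = -0.09 (Spearman -0.31) in PKD kidneys (permutation p = 0.779 and 0.331, adjusted p = 0.779 and 0.331) and r = 0.87 (Spearman 0.83) in treated kidneys (permutation p = 0.000300 and 0.00103, adjusted p = 0.00120 and 0.00412). Leaving out the 2 kidneys farthest from the median of *Anxa1*, r was -0.72 (permutation p = 0.0203, adjusted p = 0.0513) in PKD, where these were replicates 3 and 6, and 0.67 (permutation p = 0.0256, adjusted p = 0.0513) in treated kidneys, where they were again 4 and 11. With 10 kidneys in place of 12, and a narrower range of values, 0 of the 4 relations passed the adjusted threshold. Whether the correlations differ between the groups was not tested. *S100a4* and *S100a6*, which are neighbours, could not be correlated because of the counts of *S100a4*.

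**Figure D3:**
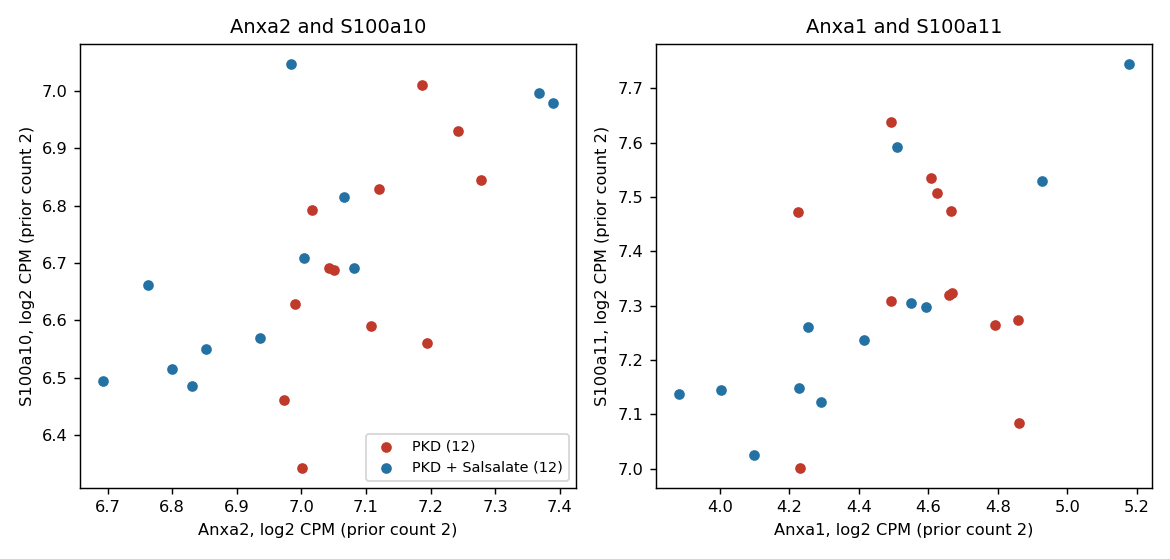
Log2 CPM (prior count 2) of *S100a10* against *Anxa2* and of *S100a11* against *Anxa1*, with a point for each of the 12 PKD (red) and 12 PKD + Salsalate (blue) kidneys. In the treated kidneys the values rise together in both panels, with replicates 4 and 11 at the upper right, and the PKD kidneys show no common slope for *Anxa1* and *S100a11* (r = -0.09).

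Among the other genes of both families, calls went in both directions. Of the 14 other S100 genes, 5 could be tested, of which 2 rose and 3 fell in PKD relative to wildtype. In that comparison 24.1% of all genes tested were called higher and 25% lower. *S100a14*, an epithelial S100 gene, rose from 0.847 ± 0.345 CPM in wildtype (SD, n = 8) to 5.00 ± 1.496 in the PKD group and 3.72 ± 1.30 in the treated group (n = 12 each), a log2 difference of 2.51 (adjusted p = 2.41e-10) and 2.09 (adjusted p = 1.46e-08). *S100g*, which encodes the calcium carrier calbindin-D9k of the distal tubule, fell from 366 ± 127 CPM to 146 ± 38.6 and 170.3 ± 30.7, a log2 difference of -1.32 (adjusted p = 2.35e-08) and -1.10 (adjusted p = 9.28e-07). Of 4 thick ascending limb and distal tubule markers, 2 were also lower in PKD and 2 were not called. *Slc12a3*, the thiazide-sensitive sodium chloride cotransporter, was at 1040 ± 97.9 CPM in wildtype and 509 ± 55.4 in PKD. *Calb1*, which encodes calbindin-D28k, was at 284 ± 76.4 and 96.0 ± 15.3 CPM. The part of these markers in the value of *S100g* was not tested. *S100a16* rose by 0.26 in PKD (adjusted p = 0.00103). *S100a13* (-0.48, adjusted p = 0.0153) and *S100a1* (-0.24, adjusted p = 0.0188) were lower in PKD, but *S100a13* was at 0.39 (adjusted p = 0.0488) and *S100a1* at -0.05 (adjusted p = 0.714) against the 3 wildtype libraries not ending in R.

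Of 8 other annexin genes 6 could be tested, of which 0 were higher and 1 lower in PKD: *Anxa11*, with a log2 difference of -0.18 (adjusted p = 0.0280), or -0.04 (adjusted p = 0.574) when only wildtype libraries with R names were used. *Anxa6*, named here after its values were seen, was not called with all libraries (-0.24, adjusted p = 0.0878), but was called in opposite directions against the R-named set (-0.52, adjusted p = 1.78e-06) and the other set (0.38, adjusted p = 0.00133). In PKD + Salsalate against wildtype 21.8% of all genes tested were called higher and 23.2% lower. Here 2 S100 genes were higher, 3 S100 genes were lower and 2 annexins (*Anxa4* and *Anxa11*) were lower. Of these, *Anxa4* was at -0.05 (adjusted p = 0.607) against the set not ending in R and *Anxa11* at -0.04 (adjusted p = 0.620) against the R-named set. *S100a16* was not called against either set in this comparison (0.16 in both, adjusted p = 0.0619 with R names and 0.178 with the others), and against the set not ending in R *S100a1* was at -0.01 (adjusted p = 0.929) and *S100a13* at 0.35 (adjusted p = 0.0800). In PKD + Salsalate against PKD 0 of these 11 genes were called by edgeR (2 had an unadjusted p under 0.05, *S100a14* and *Anxa7*), and 0 by DESeq2. The neutrophil genes *S100a8* and *S100a9* were not tested, with counts of 0 to 16 and 1 to 31 per kidney. The neutrophil markers *Ly6g* and *Mpo* had at most 2 and 1 counts in a kidney.

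The S100 members lie in 2 clusters on chromosome 3. Of 10 tested genes outside the family whose bodies lie within 250 kb of an S100 member, 1 was higher, 2 were lower and 7 were not called in PKD against wildtype. Over all genes tested, 24.1% were called higher and 25% lower. The lowest adjusted p among the 10 neighbours was 0.302 in PKD + Salsalate against PKD.

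Of 16 genes for binding partners, channels and receptors of these proteins, 13 could be tested. In PKD against wildtype 8 were higher, 1 was lower and 4 were not called, with a median log2 fold change of 0.41. Over all genes tested, 24.1% were called higher and 25% lower. *Ahnak*, the giant scaffold bound by the annexin A2 and S100A10 complex, had a log2 difference of 0.62 (adjusted p = 2.85e-06), and *Myh9*, non-muscle myosin and a target of S100A4, of 0.41 (adjusted p = 0.000526). *Cacybp*, the calcyclin-binding protein, differed by 0.31 (adjusted p = 0.00725), and *Dysf*, which acts with annexins in membrane repair, by 0.25 (adjusted p = 0.0627). The value of *Dysf* depended on the wildtype set, at -0.00304 (adjusted p = 0.980) with R names and 0.79 (adjusted p = 4.01e-06) with the others. *Dlc1*, a GTPase-activating protein, was lower by a log2 difference of -1.002 (adjusted p = 1.29e-05), but was at -1.42 with the R-named wildtype set and at 0.12 (adjusted p = 0.233) with the other set.

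Among the channels that reach the membrane with annexin A2 and S100A10, *Trpv6* rose by 1.14 (adjusted p = 2.44e-06) and *Trpv5* was at 0.25 (adjusted p = 0.106) on the log2 scale. *Trpv5* was called against the R-named wildtype set (0.42, adjusted p = 0.0141) and was at 0.01 (adjusted p = 0.965) against the other. *Cftr*, the chloride channel of cyst fluid secretion, rose by 1.55 (adjusted p = 4.42e-08). In the plasminogen system, for which the annexin A2 complex is a cell-surface receptor, *Plau* rose by 1.01 (adjusted p = 1.92e-05) and its receptor *Plaur* by 1.10 (adjusted p = 2.28e-07), while *Plat* was at 0.05 (adjusted p = 0.761). Against the 3 wildtype libraries not ending in R, *Plau* was at 0.42 (adjusted p = 0.0642) and *Myh9* at 0.25 (adjusted p = 0.0886), and against those ending in R *Cacybp* was at 0.22 (adjusted p = 0.0783). Of the receptors for extracellular S100 proteins, *Tlr4* rose by 0.67 (adjusted p = 0.000433) and *Ager* was at -0.25 (adjusted p = 0.232), or -0.54 (adjusted p = 0.00419) with the R-named set and 0.36 (adjusted p = 0.188) with the other.

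*Plg*, *Fpr1* and *Fpr2* did not pass the filter. *Plg*, a liver gene, reached 89.9 CPM in 1 PKD kidney against a group median of 0.758 CPM. *Fpr1* had 0 to 9 counts and *Fpr2* 2 to 62 counts per kidney. In PKD + Salsalate against PKD 0 of the 13 partner genes were called by edgeR and 0 by DESeq2, and 1 (*Ahnak*, -0.18) had an unadjusted p under 0.05.

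**Figure D4:**
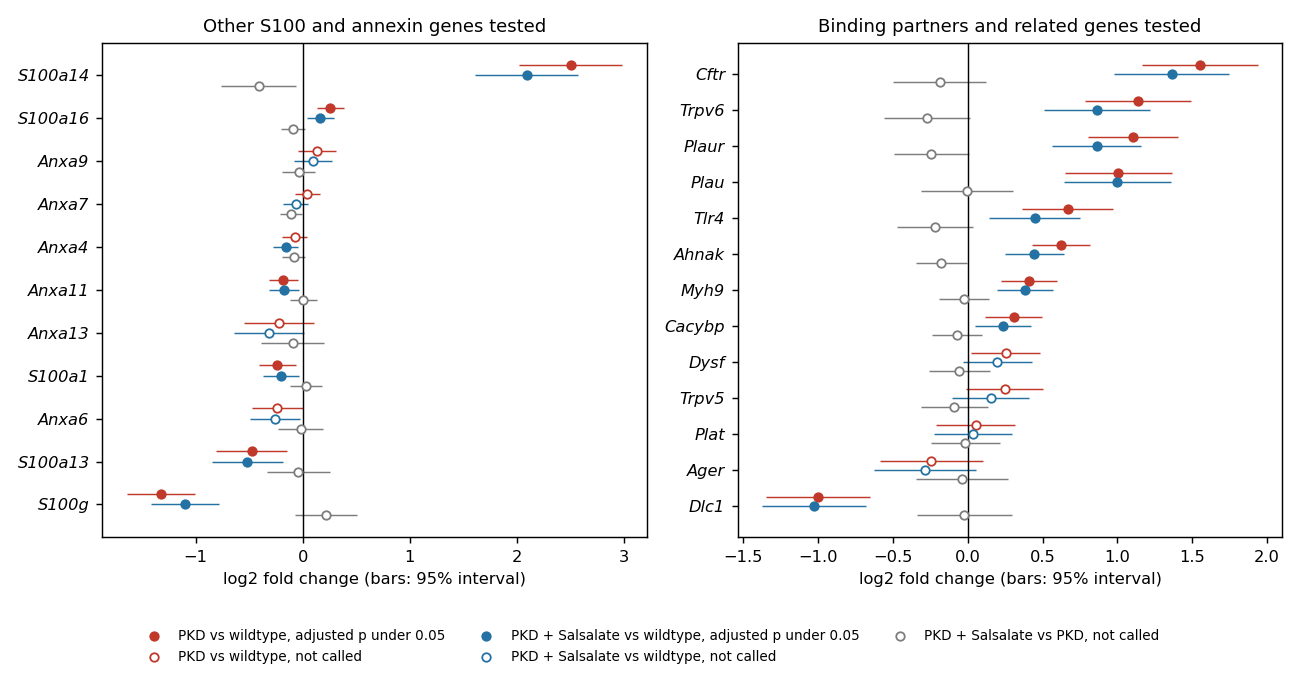
Log2 fold changes with 95% confidence intervals of the 11 other S100 and annexin genes tested (left) and of the 13 partner, channel and receptor genes tested (right), for the same 3 comparisons. Filled points have an adjusted p under 0.05. *S100a14* lay far right and *S100g* far left in both comparisons with wildtype, and all grey points are open.

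Relative to wildtype, macrophage, fibroblast and injured tubule markers rose in PKD, as the members did. Markers of the remaining cell types went in both directions. Within a group, kidneys high for the members were not always high for macrophage and fibroblast markers. Treated replicate 11 ranked 1 in its group in summed members (847 CPM) and in both marker sums. Among PKD kidneys, replicate 8 ranked 1 in summed members (730 CPM) and macrophage markers (564 CPM) and 2 in fibroblast markers (1322 CPM). PKD replicate 4 ranked 3 in summed members (713 CPM) and 11 in both marker sums, and was the lowest PKD kidney for *Anxa3* and *Anxa5*. In PKD against wildtype 9 of 9 macrophage markers, 8 of 8 fibroblast markers and 5 of 5 injured tubule markers were higher. Over all genes tested, 24.1% were called higher and 25% lower. The summed macrophage markers ran from 158 to 248 CPM in wildtype and from 357 to 564 CPM in PKD kidneys, the fibroblast markers from 355 to 525 CPM and from 827 to 1374 CPM, and the injured tubule markers from 10.5 to 19.6 CPM and from 82.2 to 212 CPM. In PKD + Salsalate kidneys these sums ran from 320 to 636, from 769 to 1723 and from 54.3 to 280.2 CPM. Between treated and untreated PKD kidneys, 0 of these markers were called by edgeR and 0 by DESeq2, and 3, all of injured tubule, had an unadjusted p under 0.05. Of the T cell markers 2 of 2 tested were higher in PKD against wildtype, and of the neutrophil markers 1 of 1, *Csf3r*. Podocyte markers were lower (3 of 3), 1 of 2 B cell markers was lower, and of 6 proximal tubule markers 1 was higher and 1 lower. Of 4 thick ascending limb and distal tubule markers 2 were lower, and of 5 collecting duct markers 2 were lower. The part of these cell types in the S100 and annexin values was not tested.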

How the data were processed

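Poly(A) RNA of 32 kidneys was sequenced from directional libraries. Per the submitters' processing notes and the study's methods, reads were trimmed with cutadapt 2.10, aligned with STAR 2.7.5a to GRCm39 and counted by strand with HTSeq 0.12.4 on Ensembl genes. The authors deposited raw counts per gene, without normalization. The 5 summary lines of HTSeq were left out of library sizes. Between 73.6% and 83.1% of alignments per kidney lay on genes.

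R 4.3.3 and edgeR 4.0.16 were used for the counts. A gene was kept if its log2 CPM exceeded 1 in 25% or more of the kidneys, and TMM factors were applied. The 3 groups entered 1 quasi-likelihood fit with no covariate, and 2-sided p-values received a Benjamini-Hochberg adjustment across the 13961 genes kept. The SE is the log2 fold change divided by the root of F. Correlations used 100000 permutations. GENCODE release M39 supplied names and positions for 52610 identifiers and lacked 1090. Other S100 and annexin genes were named where called with a log2 fold change among the 5 largest, and *S100a8* and *S100a9* in any case. All partners were named, and up to 3 most similar genes of each member. An item withheld from this text is not reported here.

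Alternatives comprised DESeq2 1.42.0, its size factors, other filters, a fit of the groups compared alone, a block for the replicate number, either set of wildtype libraries, and each kidney left out. The fit was tested on simulated data. The members and all lists were chosen with earlier results of these data known. Each kidney is a separate sample by its label, and p-values of the group comparisons weigh a difference against the spread between these kidneys.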

Additional observations from a re-analysis of the deposited data

Results flagged for a closer look

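Of the 31 named genes tested in the 8 wildtype kidneys, 1 had a kidney that lay far from the others for the spread of the group. *S100a11* was read at 116 CPM in wildtype replicate 4, where the next highest kidney was at 99.1 CPM and the lowest at 85.03 CPM. The gap was 0.543 of the range. Chance alone gives about 1 such kidney in 20 groups. Leaving out any 1 kidney left the *S100a11* log2 fold change in PKD against wildtype between 0.78 and 0.86.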

How the results depend on the processing

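Over 33 results, 1117 alternative values were computed, of which 1100 kept direction and side of the threshold or, for a count, stayed within 1.5 times of its value; within that tolerance the other S100 and annexin genes called in PKD against wildtype ran from 4 to 8 around 6. A relation called under no setting, *Anxa1* with *S100a11* in PKD kidneys, still moved from -0.09 to -0.72. Leaving out 1 kidney at a time kept 7 of 7 members called in PKD against wildtype, 6 or 7 in PKD + Salsalate against wildtype and 0 in PKD + Salsalate against PKD. For *S100a10* the last difference, 0.015, ran from -0.019 to 0.045 without 1 kidney, and turned negative without PKD replicate 2 (-0.015) or 7 (-0.00584) or treated replicate 4 (-0.00816), 10 (-0.019) or 11 (-0.00588), with all adjusted p of 0.919 or more. *Anxa3* in PKD + Salsalate against wildtype ran from 0.23 to 0.41 (adjusted p 0.0276 to 0.155), and passed the threshold without wildtype replicate 1, 3 or 5 or treated replicate 2 or 3. With only the wildtype libraries not ending in R, 4 other S100 and annexin genes were called in PKD + Salsalate against wildtype, where all libraries gave 7. Without TMM, 5 members and 6.41% of all genes tested were higher in all PKD than in all wildtype kidneys. Without the 2 kidneys farthest from the median, the correlations of *Anxa2* with *S100a10* were 0.51 in PKD and 0.63 in treated kidneys, and that of *Anxa1* with *S100a11* was 0.67 in treated kidneys, none past the adjusted threshold. The replicate number as a block left 7, 6 and 0 members called in the 3 comparisons and moved the calls over all genes from 6852 to 5839, from 6269 to 5392 and from 81 to 48. Kidneys share only the number: the correlation of their deviations ran from -0.55 to 0.47 over 28 pairs, 8 of them over 0.1, and 6 of 56 best matches were with a kidney's own number. *S100a8* and *S100a9* reached at most 0.718 and 1.48 CPM in a kidney and were not tested. For *S100a4*, the bases shared with *Gm42674* were measured in the annotation used here, not in the one behind the counts.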
